A study of Rattus norvegicus with 12 samples.

Results

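The acute-phase protein genes described here are 10 of the 30045 gene symbols counted in cultured metatarsal bones of fetal Sprague Dawley rats (embryonic day 19), measured by RNA sequencing after 72 h of culture. They were chosen by symbol, as protease inhibitors and carriers of the acute phase together with 3 genes of the interleukin-6 pathway, and also by their measured values in these libraries, since several rose with dexamethasone and fell partly back when LiCl was added. The 4 groups had 3 libraries each. Control bones received the ethanol vehicle only. The Dexamethasone (Dex) group received 1 µM of this synthetic glucocorticoid. The LiCl group received 10 mM of lithium chloride, an inhibitor of the kinase GSK3β, together with the ethanol vehicle. The Dexamethasone + LiCl group (Dex+LiCl) received both drugs at those concentrations. All media contained bovine serum albumin, β-glycerolphosphate and ascorbic acid. Each library came from a pool of about 20 bones, so n = 3 pools in every group and the spread is that between pools. The explants are bones in dishes, with no blood flow and no liver.

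The acute phase is the response of the body to injury and infection, in which the liver changes its output of plasma proteins within hours. Interleukin-6 is its main signal. It binds the receptor Il6r, the pair recruits the shared chain Il6st (gp130), and JAK kinases then phosphorylate Stat3, which enters the nucleus. Glucocorticoids are known to act together with interleukin-6 on many of these genes in liver cells. In the rat, A2m (alpha-2-macroglobulin) and Orm1 (alpha-1-acid glycoprotein) are classical acute-phase genes of this kind. Several of the genes are also transcribed outside the liver, among them Lcn2, which cartilage and bone cells can make.

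The sequence before the start of a gene is where many of its regulators bind. RefSeq (assembly GRCr8) gave a promoter window of 300 bases, 250 before the start of the gene and 50 after it, for 7 of the 10 genes. A2m, A1i3 and Hp had no entry. The windows were searched on both strands for 6 motifs. These were the palindrome of the glucocorticoid receptor element (GNACA and TGTNC with 3 bases between), its half-site (AGAACA), the STAT element (TTCNNNGAA), the C/EBP element (TTGCNNAA), an NF-kB element (GGG and CC with 5 bases between) and the TATA box (TATAAA). The upstream stretches of 3 genes are printed 5′ to 3′ on the strand of the gene, with every match in capitals. Orm1 and Serpina3n were chosen because they held the glucocorticoid receptor palindrome, and Lcn2 because it had the largest log2 fold change between Dexamethasone and control among the 9 acute-phase genes past the count filter. The Orm1 stretch lies at chr5:81788259-81788508 (plus strand), that of Serpina3n at chr6:129088142-129088391 (plus strand) and that of Lcn2 at chr3:36081852-36082030 (minus strand). The Lcn2 stretch stops 72 bases before the start used for the window, where the annotated gene begins.
Orm1: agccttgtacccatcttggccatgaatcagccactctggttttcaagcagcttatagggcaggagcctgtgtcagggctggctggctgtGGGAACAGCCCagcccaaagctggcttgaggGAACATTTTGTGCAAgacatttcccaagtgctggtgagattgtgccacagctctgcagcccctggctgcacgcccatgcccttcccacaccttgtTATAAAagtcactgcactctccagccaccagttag
Serpina3n: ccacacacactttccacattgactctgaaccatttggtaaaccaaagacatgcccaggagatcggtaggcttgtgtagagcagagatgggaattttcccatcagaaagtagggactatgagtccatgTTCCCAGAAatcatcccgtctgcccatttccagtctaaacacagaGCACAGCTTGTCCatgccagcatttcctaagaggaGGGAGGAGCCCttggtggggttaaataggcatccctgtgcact
Lcn2: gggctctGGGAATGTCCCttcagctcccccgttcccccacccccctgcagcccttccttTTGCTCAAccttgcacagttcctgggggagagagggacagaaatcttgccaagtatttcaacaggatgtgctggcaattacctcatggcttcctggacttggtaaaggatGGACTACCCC

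In Orm1 the glucocorticoid receptor palindrome (GAACATTTTGTGC) lay from 130 to 118 bases before the start and overlapped a C/EBP match (TTGTGCAA on the other strand) that ran from 123 to 116 bases before it. A TATA box began 35 bases before the start. In Serpina3n the palindrome (GCACAGCTTGTCC) began 78 bases before the start, and the STAT match (TTCCCAGAA) began 123 bases before it. Lcn2 held a C/EBP match (TTGCTCAA) that began 191 bases before the start, and Cp held one that began 72 bases before its own. The palindrome was present in 2 of the 7 promoters and in 0.439% of the 33469 promoter windows of the table, the STAT element in 1 of 7 against 8.87%, and the C/EBP element in 3 of 7 against 10.6%. The NF-kB element was present in 5 of 7 promoters against 47.3% of all windows, with overlapping matches on both strands in Lcn2, Orm1 and Serpina3n. The TATA box was present in 2 of 7 (Orm1 and Cp) against 14.2%. The half-site matched in 0 of 7 against 20.7% of all windows. Il6r and Il6st held NF-kB matches only, and Stat3 held no match to any of the 6 motifs. These matches describe letters in a short window and were not tested for binding.

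**Figure D1:**
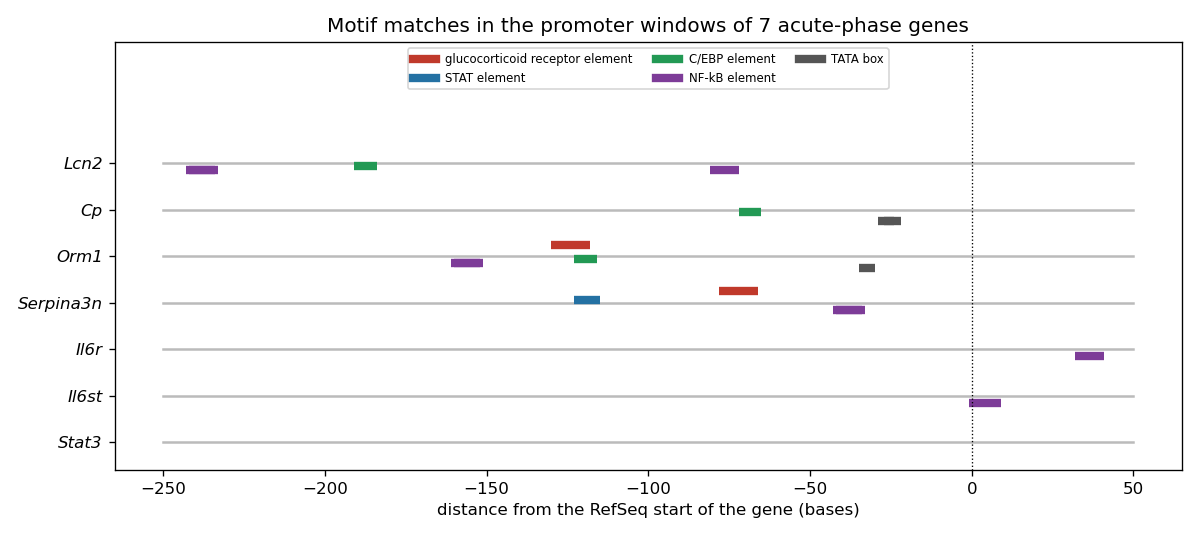
Motif matches in the 300-base promoter windows of the 7 acute-phase genes with a RefSeq promoter; the horizontal axis is the distance in bases from the start of the gene, each grey line is 1 gene and each colored block 1 match. The glucocorticoid receptor palindrome is seen in Orm1 and Serpina3n, the STAT element in Serpina3n, and Stat3 shows no match.

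Total counts were 9055581 to 21953446 per library. The Dexamethasone libraries held 9263078 to 11685463 counts and the control libraries 10761816 to 21953446. Levels are given as counts per 1000000 counts of each library's TMM-scaled size (CPM), a scale on which libraries but not genes can be compared, because transcript lengths were not used. The dexamethasone treatment was seen in known glucocorticoid targets. Fkbp5 was at 32.8 ± 1.30 CPM in control and 238 ± 25.2 CPM with dexamethasone (SD, n = 3), and all 6 targets checked (Fkbp5, Per1, Zbtb16, Tsc22d3, Klf9, Dusp1) rose at an adjusted p under 0.05 in edgeR. Cartilage markers were abundant in every library, with a summed level of the 8 chondrocyte genes of 65761 to 97848 CPM. Liver markers were near absent. Of 10 hepatocyte genes, Ahsg and Hnf4a were at 0 in every library, and only Serpina1 exceeded 10 counts in any library. The 10 neutrophil genes together gave 5 to 34 counts per library.

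A shared pattern across the groups was seen in 6 genes (Lcn2, Cp, Orm1, A2m, A1i3 and Il6r). They were low in control and LiCl, highest with dexamethasone, and lower in mean with both drugs than with dexamethasone alone. Hp was higher in both groups with LiCl. Serpina3n was variable and had its highest mean with both drugs. Il6st and Stat3 were nearly level. Because the dexamethasone rise and its partial reversal were part of how the genes were chosen, the comparisons that include dexamethasone are given below as descriptions, and only LiCl against control carries a test for these genes.

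**Figure D2:**
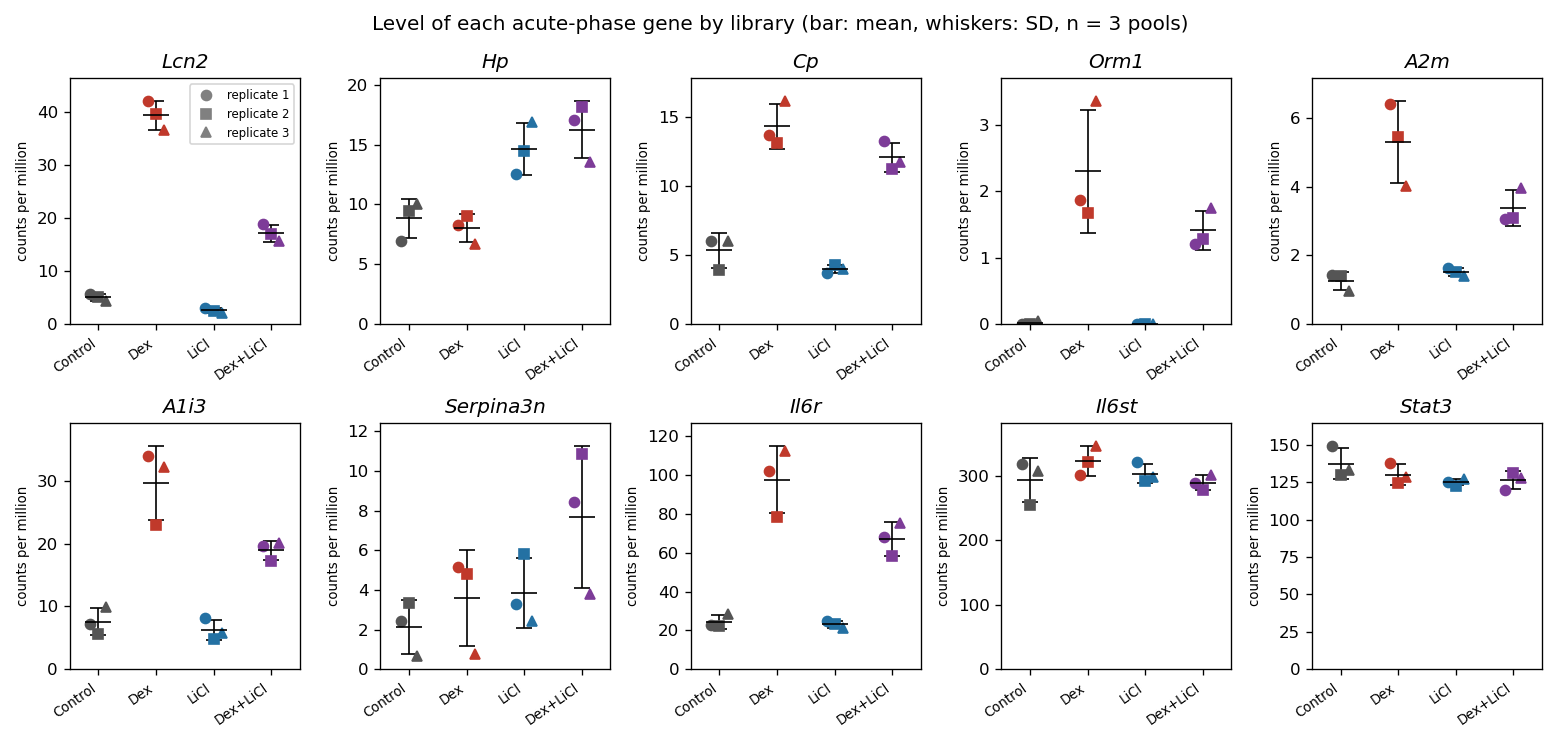
Level of each of the 10 genes in every library in CPM, with each vertical axis starting at 0; symbols mark replicates 1 to 3, the bar is the mean and the whiskers are the SD of 3 pools. Lcn2 lies between 36.6 and 42.1 CPM with dexamethasone, between 15.7 and 18.9 CPM with both drugs and below 5.7 CPM in every other library, whereas Stat3 stays between 119 and 149 CPM throughout.

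Lcn2 encodes lipocalin 2, a carrier that binds bacterial iron chelators. Its level in the control pools was 5.63, 5.11 and 4.43 CPM, and with dexamethasone it was 42.1, 39.6 and 36.6 CPM. With LiCl it was 3.14, 2.52 and 2.18 CPM, and with both drugs it was 18.9, 17.0 and 15.7 CPM. The 4 groups did not overlap in any pair, with LiCl lowest, then control, then both drugs and dexamethasone highest. In counts these levels rest on 55 to 125 reads per control library, 44 to 48 per LiCl library and 327 to 472 per Dexamethasone library. The mean with dexamethasone was 7.79-fold that of control in the fit (log2 fold change 2.96, SE 0.13). With LiCl added, the level was 0.43-fold that of dexamethasone alone (log2 fold change −1.21, SE 0.12), and 35.3% of the difference between Dexamethasone and control in mean CPM was left.

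Hp encodes haptoglobin, which binds free hemoglobin. The control pools held 6.98, 9.47 and 10.1 CPM and the Dexamethasone pools 8.28, 9.06 and 6.72 CPM. The LiCl pools held 12.6, 14.5 and 16.9 CPM and the Dex+LiCl pools 17.0, 18.2 and 13.5 CPM. Every pool with LiCl lay above every pool without it, whether or not dexamethasone was present, while control and Dexamethasone overlapped, as did LiCl and Dex+LiCl. On the log2 scale the change was 0.74 (SE 0.17) for LiCl against control and 1.00 (SE 0.18) for Dex+LiCl against Dexamethasone.

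Cp encodes ceruloplasmin, the copper-carrying ferroxidase of plasma. The control pools held 6.03, 3.90 and 6.05 CPM and the LiCl pools 3.72, 4.30 and 3.97 CPM. The Dexamethasone pools held 13.7, 13.1 and 16.1 CPM and the Dex+LiCl pools 13.2, 11.2 and 11.7 CPM. All pools with dexamethasone lay above all pools without it, and Dexamethasone and Dex+LiCl overlapped. The log2 fold change of Dexamethasone against control was 1.39 (SE 0.17), and 75.1% of that difference in mean CPM was left with both drugs. The log2 fold change of Dex+LiCl against Dexamethasone was −0.25 (SE 0.16).

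Orm1 encodes alpha-1-acid glycoprotein, a carrier of drugs and lipids in plasma. It did not pass the count filter (at least 60 counts in at least 2 libraries), so its counts are given. Control libraries held 0, 0 and 1 counts and LiCl libraries 0, 0 and 0. Dexamethasone libraries held 18, 20 and 30 counts and Dex+LiCl libraries 11, 14 and 30. The transcript was thus counted almost only where dexamethasone was present, and its level there was low, at 1.68 to 3.36 CPM with dexamethasone and 1.20 to 1.75 CPM with both drugs. The ratio of Dexamethasone to control, from 68 counts against 1, was 118 (exact 95% interval 20.4 to 4720, for counting error only). Against LiCl, the level with both drugs was 26.4-fold higher with the LiCl group set to 3 counts over its libraries, the 95% upper limit for a count of 0. This value leaves out the counting error of the 55 counts with both drugs, so it is not a lower limit. The ratio of Dex+LiCl to Dexamethasone was 0.66 (0.46 to 0.96 for counting error only), but the pools of these groups overlapped.

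The protease inhibitors A2m and A1i3 (alpha-1-inhibitor 3) belong to the macroglobulins, large proteins that trap proteases. A2m was at 1.44, 1.39 and 0.96 CPM in control and at 1.64, 1.52 and 1.40 CPM with LiCl. It was at 6.42, 5.46 and 4.03 CPM with dexamethasone and at 3.06, 3.10 and 3.97 CPM with both drugs. Dexamethasone lay above Dex+LiCl in every pool, by little for the lowest Dexamethasone pool (4.03 against 3.97 CPM), and both lay above control and LiCl. The fitted log2 difference was 2.08 (SE 0.25) for Dexamethasone against control and −0.63 (SE 0.22) for Dex+LiCl against Dexamethasone, with 52.4% of the difference in mean CPM left. A2m reached 60 counts only in 2 Dexamethasone libraries and 1 Dex+LiCl library, so it passed the count filter through the groups in which it was high.

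A1i3 was at 7.20, 5.57 and 9.87 CPM in control and at 8.08, 4.88 and 5.76 CPM with LiCl. It was at 33.9, 23.0 and 32.2 CPM with dexamethasone and at 19.6, 17.2 and 20.0 CPM with both drugs. Control and LiCl overlapped, and the other groups were separate and higher, with Dexamethasone highest. Its log2 fold change was 1.94 (SE 0.20) for Dexamethasone against control and −0.64 (SE 0.19) for Dex+LiCl against Dexamethasone, with 51.3% of the difference in mean CPM left. In the RefSeq table A1i3 is an older name of both Mug1l1 and Mug1, which follow A2m on chromosome 4 together with Mug2. Mug1 (at most 21 counts per library) and Mug2 (at most 2 counts) had counts of their own, and reads shared among these near-identical genes could have been split, so the A1i3 level is uncertain to that extent.

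Serpina3n encodes a serine protease inhibitor related to alpha-1-antichymotrypsin. Its level was 2.43, 3.34 and 0.65 CPM in control, 5.17, 4.78 and 0.78 CPM with dexamethasone, 3.29, 5.82 and 2.42 CPM with LiCl, and 8.41, 10.9 and 3.80 CPM with both drugs. Replicate 3 was the lowest pool in each of the 4 groups, down to 7 counts in the Dexamethasone library. Dex+LiCl lay above control in every pool, and the other group pairs overlapped. The log2 fold change of Dexamethasone against control was 0.85 with an SE of 0.61, the largest SE of the 9 genes past the filter in that comparison. The gene reached 60 counts only in 1 LiCl library and the 3 Dex+LiCl libraries. Its paralogs Serpina3c and Serpina3m were at 0 counts in every library, and how reads shared within this family were counted is not stated.

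Il6r, the ligand-binding receptor of interleukin-6, was at 22.6, 22.4 and 28.7 CPM in control and at 24.8, 23.2 and 21.4 CPM with LiCl. It was at 102, 78.6 and 113 CPM with dexamethasone and at 68.0, 58.2 and 75.5 CPM with both drugs. Dexamethasone was highest and Dex+LiCl next, without overlap, and control and LiCl overlapped. The log2 fold change was 1.98 (SE 0.14) for Dexamethasone against control and −0.53 (SE 0.13) for Dex+LiCl against Dexamethasone, with 58.3% of the difference in mean CPM left. Each library held 241 counts or more of Il6r.

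Il6st, the signal-transducing chain shared by the interleukin-6 cytokines, was at 319, 254 and 308 CPM in control and at 301, 322 and 347 CPM with dexamethasone. It was at 321, 293 and 298 CPM with LiCl and at 289, 278 and 302 CPM with both drugs. The other 3 groups overlapped control, and the log2 fold changes of the 5 comparisons lay between −0.16 and 0.14. Stat3, the transcription factor at the end of the pathway, was at 149, 130 and 133 CPM in control and at 138, 124 and 128 CPM with dexamethasone. It was at 125, 123 and 127 CPM with LiCl, each pool below every control pool, and at 119, 131 and 128 CPM with both drugs. Its log2 fold changes lay between −0.14 and 0.02. Their fold changes were smaller than those of Il6r in each comparison with dexamethasone, and their proteins and phosphorylation were not measured.

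The effect of LiCl alone was tested with edgeR's quasi-likelihood test in the 9 genes past the filter, with p adjusted over 12602 genes. Of the 9, 2 passed at an adjusted p under 0.05, 1 in each direction. Of all genes tested, 4.71% passed as higher and 5.90% as lower. Lcn2 fell by 0.97 on the log2 scale (SE 0.16, adjusted p 0.0014 in edgeR), from 5.06 ± 0.60 CPM in control to 2.61 ± 0.49 CPM with LiCl, and was lower in 3 of 3 pools. Hp rose 1.67-fold (log2 fold change 0.74, SE 0.17, adjusted p 0.010 in edgeR), from 8.84 ± 1.64 to 14.6 ± 2.14 CPM, and was higher in 3 of 3 pools. The Hp call was lost without Control replicate 1 (log2 fold change 0.58, adjusted p 0.0501) and without LiCl replicate 3 (0.63, adjusted p 0.064). The control libraries of this test are those from which the dexamethasone rise was taken.

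The other 7 genes did not pass for LiCl against control. For Cp the value was −0.44 on the log2 scale (SE 0.18, adjusted p 0.13 in edgeR), and Cp passed without Control replicate 2, its lowest control pool (−0.59, adjusted p 0.032). Serpina3n had 0.93 (SE 0.57, adjusted p 0.33 in edgeR). With the replicate number as a block its adjusted p was 0.034 (log2 fold change 0.96), but 0 control libraries and only 1 LiCl library reached 60 counts, so it entered this test through the groups in which it was high and this is not read as a change. The value was 0.45 without Control replicate 3. A1i3 had −0.32 (SE 0.22, adjusted p 0.38), A2m 0.27 (SE 0.27, adjusted p 0.56) and Stat3 −0.14 (SE 0.08, adjusted p 0.27). Il6r had −0.09 (SE 0.14, adjusted p 0.72) and Il6st 0.05 (SE 0.09, adjusted p 0.79). The median over the 9 genes was −0.09, and the median over all genes tested was 0.00092. In simulated data for this comparison with 12602 genes, the test found 68% of genes raised 1.5-fold, 96% of genes raised 2-fold and 82% of genes lowered to 0.5-fold, so changes of these sizes could be missed.

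**Figure D3:**
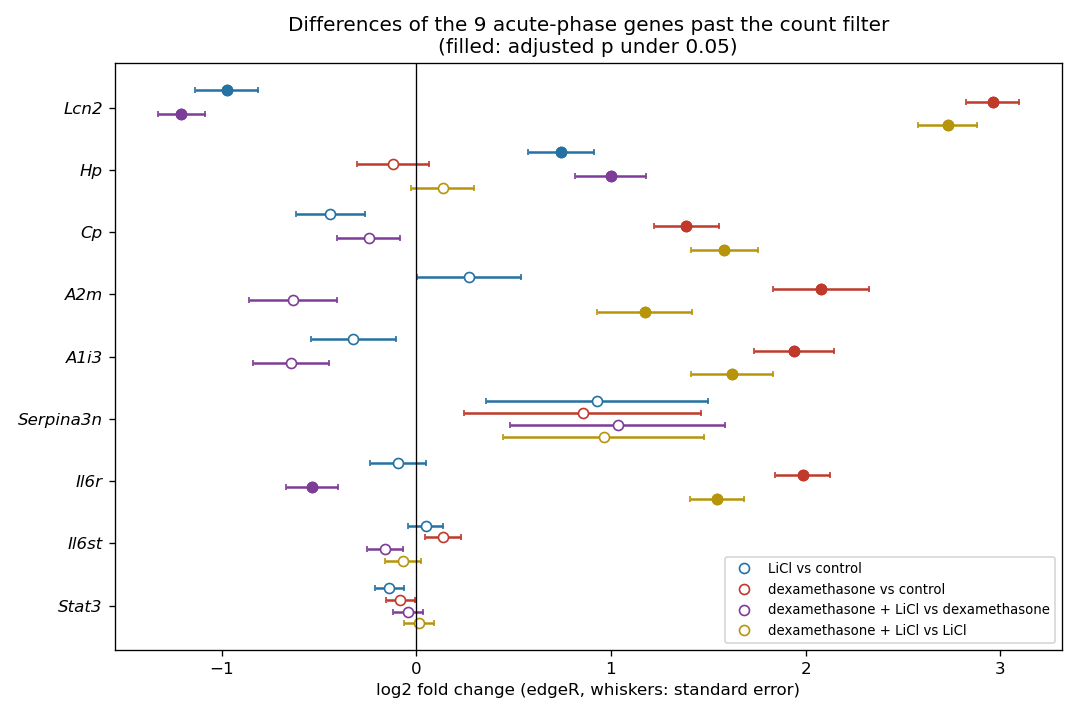
Log2 fold changes with their standard errors for the 9 genes past the count filter in 4 comparisons; filled symbols have an adjusted p under 0.05 in edgeR, which for comparisons with dexamethasone is a description only. Lcn2, A2m, A1i3, Il6r and Cp lie between 1.39 and 2.96 for dexamethasone against control, and Hp lies to the right for LiCl with and without dexamethasone.

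With dexamethasone alone, 5 of the 9 genes past the filter were above the call threshold as higher than control and 0 as lower, where 5.45% of all genes were higher and 5.49% lower. The genes were Lcn2, A2m, Il6r, A1i3 and Cp. The count of 5 follows from how the genes were chosen. A2m passed the count filter only through Dexamethasone and Dex+LiCl libraries, in which it was high. Its calls here and below are included in the counts but are not read as changes. With thinned counts A2m was not called for Dexamethasone against control, nor for both drugs against control or LiCl. When LiCl was added to dexamethasone, Hp was above the threshold as higher and Lcn2 and Il6r as lower, where 3.82% of all genes were higher and 4.78% lower. With the replicate block the count was 5 in place of 3, and Serpina3n was then also higher and A1i3 also lower. The Il6r call was lost without Dex replicate 1, Dex replicate 3, Dex+LiCl replicate 1 or Dex+LiCl replicate 2. A1i3 was also lower in DESeq2, without a count filter, with thinned counts and in the fit of only the groups compared. The same was seen for A1i3 without Control replicate 2, Control replicate 3, Dex replicate 2 or LiCl replicate 1. For both drugs against control, 7 genes were higher and 0 lower, where 10.8% of all genes were higher and 11.8% lower. Those were the same 5 genes as for dexamethasone, with Hp and Serpina3n in addition. Serpina3n reached the minimum count of the filter in 0 control, 0 Dexamethasone, 1 LiCl and 3 Dex+LiCl libraries. It thus passed mainly through the group in which it was high, and its calls with both drugs are not read as changes. The Serpina3n call against control was also lost in DESeq2 and without Control replicate 3, Dex+LiCl replicate 1 or Dex+LiCl replicate 2. For both drugs against LiCl, the 5 genes named for dexamethasone were higher and 0 lower, where 3.79% of all genes were higher and 3.09% lower. With the replicate block Serpina3n was higher there too. All these comparisons share libraries with each other. With a fold above 2 also required, 0 genes were called for LiCl against control (0.809% of all genes higher, 0.770% lower) and 5 for Dexamethasone against control (1.58% and 1.26%). For Dex+LiCl against Dexamethasone 1 remained, Lcn2 (0.770% and 0.595%), with Hp just under that fold. There were 6 for Dex+LiCl against control (2.27% and 2.10%) and 5 against LiCl (1.35% and 0.659%).

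The rise with dexamethasone was also present when LiCl was given in both arms. On the log2 scale the effect of dexamethasone was 2.96 without LiCl and 2.73 with LiCl for Lcn2, and 1.39 and 1.58 for Cp. It was 1.98 and 1.54 for Il6r, 1.94 and 1.62 for A1i3, and 2.08 and 1.17 for A2m. The difference between these effects had a standard error of 0.21 for Lcn2 and 0.35 for A2m, and it was not tested for the chosen genes.

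Other genes of the acute phase were described from a list of 47 drawn up with earlier results of these data known. Its counts and p-values are therefore given as descriptions. Of the 47 genes, 45 were in the files and 17 passed the count filter. Of the 18 positive plasma proteins listed 6 passed, and of the 8 negative ones 4, among them C3, Cfb, Rbp4 and Tf. Others were near absent. Apcs, Fga, Saa4 and Ahsg had no counts in any library, and Crp, Fgb, Fgg, Alb and Ttr had at most 2 counts per library. With dexamethasone, 8 of the 17 rose and 0 fell, with a median log2 fold change of 0.42 against 0.0021 for all genes, of which 5.45% rose and 5.49% fell. By class, the risers were 1 of the 6 positive plasma proteins (C3) and 2 of the 4 negative ones, among them Tf (2.99, SE 0.48). The rest were 4 of the 5 genes of metal binding and innate defense and 1 of the 2 other inhibitors of proteases. Il1r1, the receptor of interleukin-1, was at 26.1 ± 2.92 CPM in control and 101 ± 1.66 CPM with dexamethasone (log2 fold change 1.95, SE 0.09, adjusted p 1.13e-09 in edgeR). Steap4, a metalloreductase, rose by 1.10 (SE 0.16). Mt1a, a metallothionein, was at 1 to 4 counts in control and 10 to 28 counts with dexamethasone (3.43, SE 0.51), and reached 60 counts only with both drugs.

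With LiCl, 0 of the 17 acute-phase genes rose and 5 fell (4.71% and 5.90% of all genes), with a median of −0.24 on the log2 scale. Ptx3, a pentraxin of innate defense made outside the liver, was at 13.4 ± 2.62 CPM in control and 6.81 ± 0.93 CPM with LiCl (log2 fold change −0.95, SE 0.16, adjusted p 0.0014 in edgeR). Rbp4, the carrier of retinol, was at 41.1 ± 4.40 and 26.7 ± 3.20 CPM (−0.62, SE 0.12, adjusted p 0.0038 in edgeR). Serping1, an inhibitor of complement, had −1.003 (SE 0.22), and Cfb, complement factor B, −1.06 (SE 0.26). Serping1 held 45 to 74 counts per control library and 31 to 34 per LiCl library. It held at most 36 counts with dexamethasone and 39 with both drugs. Serping1 thus passed the count filter through control alone, the group in which it was high. Its call is included in the count of 5 but is not read as a change. Tf, transferrin, an iron carrier, was at 33 to 62 counts per control library and 4 to 10 per LiCl library (−2.62, SE 0.71). Rbp4 and Tf are known in the liver as negative acute-phase proteins. The count of 5 fell to 3 without LiCl replicate 1 and to 2 without LiCl replicate 3. Serping1 lost its call without LiCl replicate 3 (adjusted p 0.0521), and Cfb without Control replicate 1 (log2 fold change −0.73, adjusted p 0.0919), LiCl replicate 1 (−0.99, 0.0623) or LiCl replicate 3 (−0.999, 0.0723).

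When LiCl was added to dexamethasone, 1 of the 17 rose (Mt1a) and 4 fell (Il1r1, Tf, Ptx3, Rbp4), where 3.82% of all genes rose and 4.78% fell, with a median of −0.34. Il1r1 went from 101 ± 1.66 to 60.2 ± 3.95 CPM (log2 fold change −0.75, SE 0.09, adjusted p 5.80e-05 in edgeR). Mt1a went from 1.73 ± 1.01 to 6.33 ± 1.26 CPM (1.86, SE 0.30). It reached 60 counts only in the Dex+LiCl libraries (68 to 88 counts). Mt1a thus passed the filter through the group in which it was high, and its call is not read as a change. Tf had −1.90 (SE 0.45), with Dexamethasone pools from 8.98 to 39.8 CPM and Dex+LiCl pools from 3.19 to 9.93 CPM, which overlapped. Ptx3 had −0.62 (SE 0.17) and Rbp4 −0.46 (SE 0.12). The count of 5 fell to 3 without Dex replicate 1, Dex+LiCl replicate 1 or Dex+LiCl replicate 3, and to 2 without Dex replicate 3 or Dex+LiCl replicate 2. Ptx3 lost its call without any of these 5 libraries (adjusted p 0.0657 to 0.111), and Tf without Dex replicate 3 (log2 fold change −1.19, adjusted p 0.103), Dex+LiCl replicate 1 (0.0737) or Dex+LiCl replicate 2 (0.0693). Without Dex+LiCl replicate 3 the Tf value was −2.68. For both drugs against control, 5 rose and 4 fell (10.8% and 11.8% of all genes), and against LiCl 7 rose and 1 fell (3.79% and 3.09%). Serpina6, the corticosteroid-binding globulin, fell in both of these and was at 2.97 ± 1.02 CPM in control, 3.54 ± 1.11 CPM with LiCl and 0.86 ± 0.13 CPM with both drugs. In counts it held 37 to 73 per control library, 44 to 92 per LiCl library and 8 to 15 with both drugs. Only control and LiCl libraries reached 60 counts, so Serpina6 passed the filter through groups in which it was high. Its calls are not read as a change. Mt1a is among the genes that rose in both comparisons and Serping1 among those that fell against control, with the same limit.

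**Figure D4:**
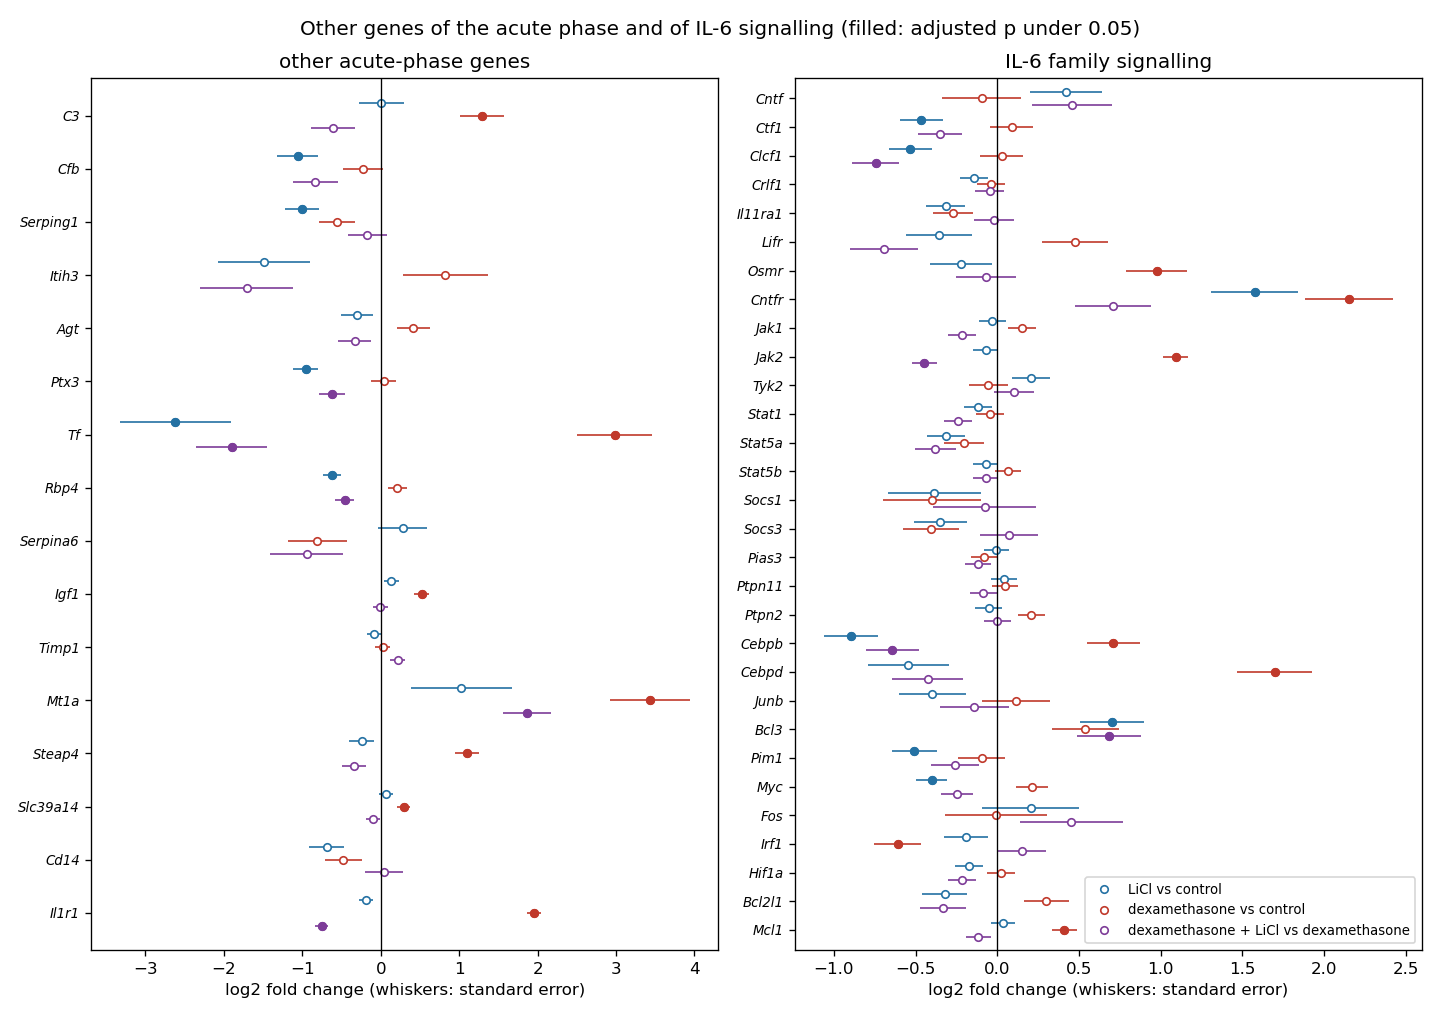
Log2 fold changes with standard errors for the other acute-phase genes reported here and the 30 genes of interleukin-6 family signaling that passed the count filter, in 3 comparisons; filled symbols have an adjusted p under 0.05 in edgeR. Il1r1, Mt1a and Tf lie far to the right with dexamethasone, and Ptx3, Rbp4, Serping1, Cfb and Tf lie to the left with LiCl.

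The ligand interleukin-6 itself was near absent, with at most 5 counts of Il6 in any library and none in the Dexamethasone libraries. The related ligands Lif, Osm and Il11 reached at most 34, 32 and 31 counts and did not pass the filter. Of 37 genes of interleukin-6 family signaling beyond the 3 described above, 30 passed. This list was also drawn up with earlier results of these data known, so its counts and p-values are given as descriptions. With dexamethasone 6 rose and 1 fell (5.45% and 5.49% of all genes), with a median log2 fold change of 0.06. Jak2, a kinase bound to gp130, was at 87.8 ± 7.04 CPM in control and 187 ± 9.67 CPM with dexamethasone (log2 fold change 1.09, SE 0.08, adjusted p 1.40e-07 in edgeR). Among receptors, Cntfr, that of ciliary neurotrophic factor, rose by 2.16 (SE 0.27) and Osmr, that of oncostatin M, by 0.98 (SE 0.19). Cebpd and Cebpb, transcription factors that act with Stat3 on acute-phase genes, rose by 1.70 (SE 0.23) and 0.71 (SE 0.16). Mcl1, a survival gene, rose by 0.41 (SE 0.08), and Irf1 was the gene that fell (−0.61, SE 0.14), named after its value was seen.

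With LiCl, 2 of the 30 rose and 5 fell (4.71% and 5.90% of all genes), with a median of −0.18. Cntfr rose from 4.68 ± 0.40 to 13.8 ± 2.25 CPM (log2 fold change 1.58, SE 0.27, adjusted p 0.0015 in edgeR), and Bcl3, a partner of NF-kB, by 0.70 (SE 0.19). Cebpb fell from 10.4 to 13.4 CPM in the control pools to 5.86 to 7.29 CPM with LiCl (−0.90, SE 0.17, adjusted p 0.0030 in edgeR), Myc had −0.40 (SE 0.10) and Clcf1, a ligand, −0.53 (SE 0.13). Pim1 and Ctf1, named after their values were seen, had −0.51 (SE 0.14) and −0.46 (SE 0.13). The count of 7 fell to 3 without any of the LiCl replicates 1, 2 or 3. Myc lost its call without LiCl replicate 1 (adjusted p 0.064) or 2 (0.0518), and Clcf1 without Control replicate 2 (0.0582), LiCl replicate 1 (0.0734) or LiCl replicate 3 (0.0705).

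When LiCl was added to dexamethasone, 1 of the 30 rose and 3 fell (3.82% and 4.78% of all genes), with a median of −0.12. Jak2 went from 187 ± 9.67 to 138 ± 3.34 CPM (log2 fold change −0.45, SE 0.08, adjusted p 0.0020 in edgeR), Clcf1 had −0.74 (SE 0.14), Cebpb −0.64 (SE 0.16) and Bcl3 0.68 (SE 0.20). With the replicate block the count was 7, with 2 higher and 5 lower. The count of 4 became 7 without Control replicate 2 or Dex replicate 2, and 2 without Dex replicate 1, Dex replicate 3 or any of the Dex+LiCl replicates 1, 2 or 3. Cebpb lost its call without each of the latter 5 libraries (adjusted p 0.0569 to 0.114), and so did Bcl3 (0.0681 to 0.158), which also lost it without Control replicate 1 (0.052), LiCl replicate 2 or LiCl replicate 3 (0.0526 each). None of the 5 tested inhibitors of the pathway passed in any of the 5 comparisons. For both drugs, 6 rose and 4 fell against control (10.8% and 11.8% of all genes), and 6 rose and 0 fell against LiCl (3.79% and 3.09%).

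Whether the LiCl effect differed with and without dexamethasone was tested in edgeR as an interaction for the 47 genes of the 2 lists. At an adjusted p under 0.05 in edgeR, 0 passed (smallest adjusted p 0.33, Il1r1), where 1 of all 12602 genes passed. With so few calls over all genes, 0 of 47 does not set these genes apart. An unadjusted p under 0.05 in edgeR was seen in 7, and DESeq2 called 1, Il1r1. No all-gene share is given for these last 2 counts.

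The bones are a mixture of cells, and in bulk RNA fewer cells of a type and less RNA per cell cannot be told apart. The summed level of the macrophage list was 87.8 to 127 CPM in control, 147 to 168 CPM with dexamethasone, 75.3 to 79.6 CPM with LiCl and 112 to 131 CPM with both drugs. This sum was carried by Mrc1 (mean 11.6 CPM in control and 51.4 CPM with dexamethasone), C1qa (18.0 and 29.1 CPM) and Cd163, while the means of Cd68, Csf1r, Ptprc, Aif1, Tyrobp and Fcer1g were lower with dexamethasone than in control. Of the 9 measured genes, 3 rose and 1 fell with dexamethasone (median log2 fold change −0.16), 0 rose and 4 fell with LiCl (median −0.46), and 2 rose and 5 fell with both drugs against control (median −0.67). Of all genes, 5.45% rose and 5.49% fell with dexamethasone, 4.71% and 5.90% with LiCl, and 10.8% and 11.8% with both drugs. Cd163, a glucocorticoid-responsive scavenger receptor for hemoglobin bound to haptoglobin, had 0 to 1 counts per control library, 1 to 4 per LiCl library, 111 to 213 with dexamethasone and 79 to 133 with both drugs. The adipocyte list was at 47.1 to 66.1 CPM in control, 46.8 to 61.0 CPM with dexamethasone, 21.6 to 23.0 CPM with LiCl and 37.1 to 51.6 CPM with both drugs. Of its 4 tested genes, 0 rose and 4 fell with LiCl (median log2 fold change −1.74), and 0 rose and 2 fell with dexamethasone (median −0.55). Mean Fabp4 was 19.1 CPM in control and 31.9 CPM with dexamethasone, while the means of the other adipocyte genes were lower with dexamethasone than in control. The endothelial list was lower with dexamethasone (84.4 to 88.5 CPM) and with both drugs (93.0 to 103 CPM) than in control (206 to 228 CPM). The part of these cell types in the levels of the acute-phase genes was not tested. Hepatocyte markers summed to 1.43 to 9.11 CPM, and most of these counts were Serpina1, at 23 to 47 counts with dexamethasone and 32 to 147 with both drugs. Neutrophil markers summed to 0.55 to 1.58 CPM, with Ltf at 0 in every library.

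**Figure D5:**
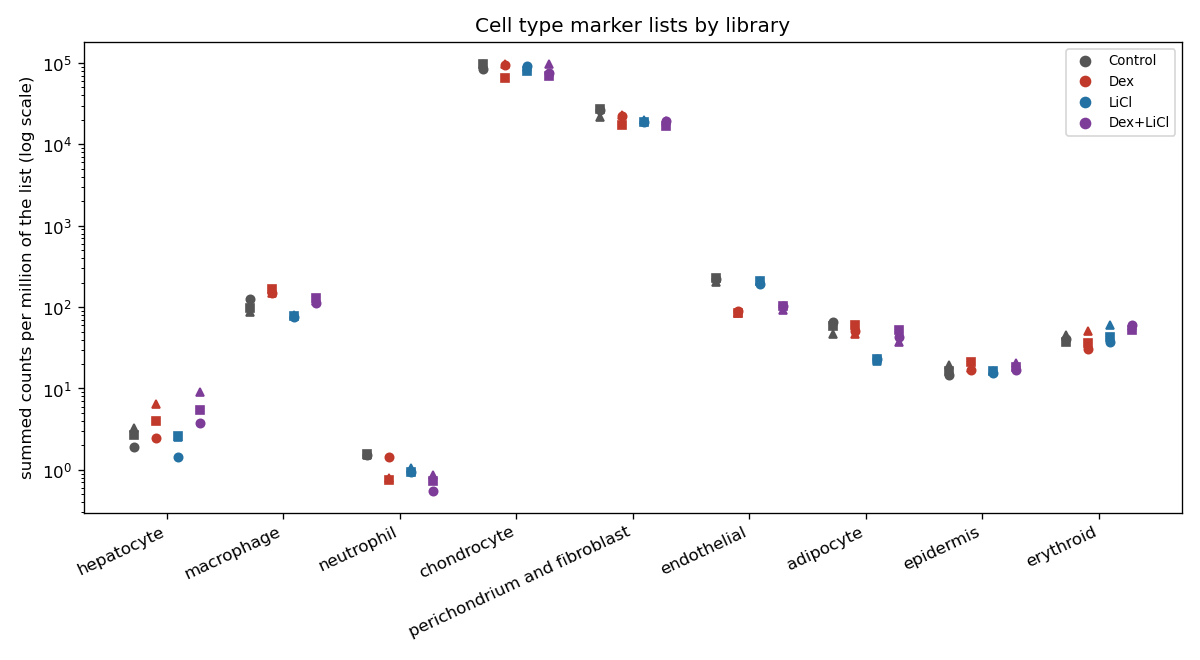
Summed level of 9 cell type marker lists in every library, in CPM on a log scale, colored by group. Chondrocyte and fibroblast markers are the most abundant, hepatocyte and neutrophil markers lie below 10 CPM, and the macrophage list is highest with dexamethasone and lowest with LiCl.

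Across the 12 libraries, log2 CPM of Lcn2, Cp, A2m, A1i3 and Il6r correlated with one another at a Pearson r of 0.87 to 0.98. These values describe the shared group pattern and carry no test, since the libraries of a group share their treatment. Hp correlated with these 5 genes at −0.33 to −0.16, and with Serpina3n at 0.57. The genes most like Lcn2 over the 12 libraries were Cnr1 (0.989), Axl (0.989) and Il1r1 (0.986). For Il6r they were Limk2 (0.988), Adamtsl4 (0.983) and Dhtkd1 (0.982), and Limk2 (0.971) and Adamtsl4 (0.969) also came first for Cp. A1i3 was closest to Tfcp2l1 (0.987), Dhtkd1 (0.982) and Il6r (0.982), and A2m to Smyd3 (0.987) and Smarcd2 (0.971). Hp was closest to Vps16 (0.974) and Serpina3n to Cd86 (0.938). For Stat3, which hardly varied, the closest gene was Zbtb8a at 0.831.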

How the data were processed

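RNA sequencing was performed on 12 libraries (4 groups of 3 pools). The authors deposited raw read counts for each gene symbol. As the study's methods state, they aligned reads with Subread, removed duplicates with Picard, counted with HTSeq and merged technical replicates. The submitters' processing notes name a human build (hg19) for these rat libraries, so the build behind the counts is not settled and no gene coordinates are given from it. The library kit kept strand, but whether counting used it is not stated, so reads of overlapping antisense genes may be included. The columns of the series table matched the single files in every cell.

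The count filter kept 12602 genes that reached 60 counts in 2 or more libraries. After TMM scaling, all 12 libraries entered a single model with condition as its term, tested by the quasi-likelihood test of edgeR 4.0.16 (R 4.3.3), two-sided, with Benjamini-Hochberg adjustment. A call is an adjusted p under 0.05. The members and gene lists were chosen with earlier results of these data known. Every member is named. From each list, up to 4 genes a comparison with the smallest adjusted p are named, with others marked in the text, and the 3 genes most correlated with each member over 12 libraries, of which some are given. Some genes that these rules name are not reported here. All libraries of a group differed from each other by more than sampling noise. Depth varied from 9055581 to 21953446 counts. Intervals cover counting error only, and the floor used for Orm1 covers that of the LiCl count only.

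The labels number the pools 1 to 3 without saying what a number stands for, and the study's methods describe 3 experiments. After group means were removed, same-numbered libraries correlated at 0.21 to 0.30 between control and LiCl, 0.19 to 0.50 between Dexamethasone and Dex+LiCl, and 0.03 to 0.17 between control and Dexamethasone. Pairs of the other groups all exceeded 0.1. The numbers were therefore read as marking pairs, although libraries with different numbers were not compared. The model above has no block, and the fit with it is given where it changes the call of a member or a count by over 1.5 times.

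The test was checked on simulated data for LiCl against control over 12602 genes, with 7 false calls (3.89%). Alternatives were RLE scaling, DESeq2 1.42.0, filterByExpr, no filter, a fold minimum of 2, the block, only the groups compared, thinned counts and each library left out. Promoters were read from RefSeq (GRCr8) with Python 3.11.15 and pandas 2.3.3, and 9 of the 10 members matched RefSeq by symbol.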

Additional observations from a re-analysis of the deposited data

Results flagged for a closer look

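On the log2 CPM scale, every LiCl pool of A2m lay above the control mean and every Dex+LiCl pool below the Dexamethasone mean. The LiCl effect with dexamethasone minus that without it was −0.88 (−0.8767). For Il6st the same directions were seen against the means of log2 CPM, with a difference of −0.21 (−0.2119). The dexamethasone effect on Il6st was likewise up without LiCl and down with it in every pool, which is the same difference of −0.21. These differences were not tested. For A2m the LiCl and control pools overlapped, at 23 to 29 counts per LiCl library and 15 to 32 per control library. For Il6st the groups' pools overlapped, and LiCl replicate 2 lay below the control mean of linear CPM.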

How the results depend on the processing

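No result changed direction while called, and with RLE scaling the all-gene median shifted by no more than 0.0022 (log2). For LiCl against control, a fold minimum of 2 left 0 of the 2 acute-phase genes called and lowered the other acute-phase genes from 5 to 3 and the interleukin-6 family genes from 7 to 1. Thinned counts gave 2 other acute-phase genes, and a fit of only the groups compared gave 3 interleukin-6 family genes. Among named genes, Clcf1 lost its call for LiCl against control (adjusted p 0.0506) and Tf for Dex+LiCl against Dexamethasone (0.0519) in the fit of only the groups compared, and Cebpb (0.056) and Bcl3 (0.0791) for Dex+LiCl against Dexamethasone with thinned counts. For Dex+LiCl against Dexamethasone, the counts of 3, 5 and 4 became 1, 2 and 0 with the fold minimum. Without a count filter they were 5 for the acute-phase genes and 9 for the others, and the replicate block gave 5 acute-phase and 7 interleukin-6 family genes. The fold minimum also gave 3 interleukin-6 family genes in place of 7 for Dexamethasone against control, 3 in place of 10 for Dex+LiCl against control and 3 in place of 6 against LiCl. For Dex+LiCl against control, the other acute-phase genes numbered 14 without a filter and 5 with the fold minimum, in place of 9. The replicate block changed no other count by over 1.5 times. With each library left out, the acute-phase genes called numbered 1 to 3 for LiCl against control, 5 to 5 for Dexamethasone against control, 2 to 4 for Dex+LiCl against Dexamethasone, 6 to 7 against control and 4 to 5 against LiCl. The other acute-phase genes numbered 2 to 6, 7 to 8, 2 to 6, 7 to 10 and 6 to 8 in the same order, and the interleukin-6 family genes 3 to 7, 6 to 8, 2 to 7, 8 to 12 and 5 to 7. The fold minimum and the thinning act by their construction; the cause of the other shifts was not tested. Low depth limits Orm1, A2m and Serpina3n most.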
